A study of Mus musculus with 12 samples.

Results

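Genes named Spata (spermatogenesis associated) or Tex (testis expressed) were examined in mouse testis. The members are the rows of the expression table whose symbol begins with Spata or Tex followed by a number. There are 66 such genes among 21004, and 65 of them passed the filter on low values of at least 1 FPKM in at least 3 libraries. Tex28 did not pass, with 0.87, 0.65 and 0.68 FPKM in the busulfan libraries, against 0.34, 0.49 and 0.33 FPKM in the control libraries, and at most 0.96 FPKM in any library. FPKM, a fragment count divided by the transcript's length and by the fragments mapped in the library, is the unit in which the authors deposited their values.

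The study sequenced RNA from the testis of ICR mice, an outbred strain, aged 8 weeks, in 12 libraries of 4 groups with 3 libraries each. The groups are labelled busulfan, busulfan plus L.J. at 10 mg/kg, L.J. at 10 mg/kg, and control. Busulfan is an alkylating drug known to kill dividing spermatogonia. The sources used here do not give what L.J. is, how much busulfan was used or when the testes were taken. No label says that the libraries of a group came from separate animals, so each p-value measures the spread between these samples, which may be technical.

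Spermatogenesis runs from spermatogonia through meiotic spermatocytes to round spermatids, and then to elongating spermatids, which pack their chromatin and build the tail. The Spata and Tex names were given for expression in testis and not for a shared protein family. They cover structural parts of sperm, meiotic recombination factors, and proteins with general work in many tissues. Elongating spermatids are known for transcripts that are stored and translated late.

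The libraries differed widely in their mix of germ and somatic transcripts. Those labelled busulfan held more spermatid and less Sertoli cell transcript than control. The drug is known to kill dividing spermatogonia, and when the testes were taken is not given, so groups are called here by their labels. Neither an exchange of labels between groups nor the part of the time after dosing was tested. Each direction given holds for the libraries as labelled. The mean log2(FPKM + 1) of 24 elongating spermatid markers was 8.87 to 9.03 in the libraries labelled busulfan and 8.86 to 9.07 in those labelled busulfan plus L.J. In those labelled L.J. it was 6.91, 8.22 and 6.31, and in those labelled control 6.19, 7.43 and 5.71. The mean of 20 Sertoli cell markers was 3.86 to 4.05 for busulfan, 3.85 to 4.06 for busulfan plus L.J., 4.55 to 6.63 in the L.J. libraries and 4.93 to 5.78 in the controls. No marker of either list was listed at 0. The summed level of the epididymis markers was 3.64, 20.6 and 534.4 FPKM in control replicates 1 to 3. It was 4.94, 6.51 and 41.2 FPKM in L.J. replicates 1 to 3, against 2.60 to 3.60 FPKM in the busulfan libraries. L.J. replicates 2 and 3 stand apart from each other, and results that rest on them are given by library.

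The regions around the gene starts are printed here because members that rose with spermatid genes and members that did not differ in their CG dinucleotides, as described further on. Each is the 300 bases from 250 before to 50 after the first listed start in the RefSeq annotation of GRCm38.p6, 5′ to 3′ on the gene's strand, with CG dinucleotides in capitals. Several genes have more than 1 start, and only the first listed window was used. The choice of these 8 genes was made after their values were seen. Spata3, Tex37 and Tex46 are among the largest increases, and Spata7 rose with a start region rich in CG. Their windows are Spata3 at chr1:86021695-86021994 on the plus strand, Tex37 at chr6:70918873-70919172 on the minus strand, Tex46 at chr4:136610187-136610486 on the plus strand, and Spata7 at chr12:98627892-98628191 on the plus strand. They hold 4, 1, 4 and 17 CG dinucleotides in that order.
Spata3: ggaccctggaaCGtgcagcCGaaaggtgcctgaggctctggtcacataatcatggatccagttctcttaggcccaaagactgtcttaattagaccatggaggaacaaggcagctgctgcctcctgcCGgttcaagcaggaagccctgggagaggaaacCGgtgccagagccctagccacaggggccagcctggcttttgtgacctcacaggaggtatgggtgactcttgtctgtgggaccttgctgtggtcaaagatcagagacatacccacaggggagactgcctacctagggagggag
Tex37: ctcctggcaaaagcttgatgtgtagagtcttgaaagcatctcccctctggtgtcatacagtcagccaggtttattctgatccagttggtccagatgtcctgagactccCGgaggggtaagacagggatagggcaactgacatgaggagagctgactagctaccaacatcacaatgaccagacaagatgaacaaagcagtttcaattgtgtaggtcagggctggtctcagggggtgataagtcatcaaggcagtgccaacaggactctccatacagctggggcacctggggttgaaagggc
Tex46: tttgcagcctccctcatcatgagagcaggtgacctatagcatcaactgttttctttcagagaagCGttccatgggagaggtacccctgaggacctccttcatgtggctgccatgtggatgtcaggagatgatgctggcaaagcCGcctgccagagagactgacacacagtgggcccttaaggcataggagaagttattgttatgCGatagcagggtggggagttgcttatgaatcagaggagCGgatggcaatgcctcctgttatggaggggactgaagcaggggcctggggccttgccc
Spata7: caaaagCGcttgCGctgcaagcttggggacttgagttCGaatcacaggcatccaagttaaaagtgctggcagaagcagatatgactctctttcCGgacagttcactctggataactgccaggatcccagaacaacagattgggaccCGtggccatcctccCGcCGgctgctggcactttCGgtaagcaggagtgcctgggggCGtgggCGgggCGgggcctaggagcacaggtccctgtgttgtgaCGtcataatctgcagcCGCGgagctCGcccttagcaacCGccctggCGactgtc

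Spata2 and Spata22 fell, Tex14 was not called, and Tex19.2 fell with a start region poor in CG. Their windows are Spata2 at chr2:167492825-167493124 on the minus strand, Spata22 at chr11:73329491-73329790 on the plus strand, Tex14 at chr11:87404815-87405114 on the plus strand, and Tex19.2 at chr11:121118628-121118927 on the minus strand. They hold 36, 25, 20 and 2 CG dinucleotides in that order.
Spata2: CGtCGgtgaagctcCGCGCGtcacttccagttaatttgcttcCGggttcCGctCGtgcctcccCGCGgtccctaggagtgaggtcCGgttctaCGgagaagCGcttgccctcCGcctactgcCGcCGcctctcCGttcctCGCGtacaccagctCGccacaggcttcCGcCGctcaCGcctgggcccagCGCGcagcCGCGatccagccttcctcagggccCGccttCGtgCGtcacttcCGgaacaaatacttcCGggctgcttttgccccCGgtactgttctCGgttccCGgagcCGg
Spata22: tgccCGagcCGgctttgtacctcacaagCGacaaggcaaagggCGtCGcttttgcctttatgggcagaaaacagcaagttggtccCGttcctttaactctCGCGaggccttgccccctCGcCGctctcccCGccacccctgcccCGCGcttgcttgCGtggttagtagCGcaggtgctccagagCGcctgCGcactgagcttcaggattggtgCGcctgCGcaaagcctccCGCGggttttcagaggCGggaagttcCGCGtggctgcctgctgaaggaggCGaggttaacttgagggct
Tex14: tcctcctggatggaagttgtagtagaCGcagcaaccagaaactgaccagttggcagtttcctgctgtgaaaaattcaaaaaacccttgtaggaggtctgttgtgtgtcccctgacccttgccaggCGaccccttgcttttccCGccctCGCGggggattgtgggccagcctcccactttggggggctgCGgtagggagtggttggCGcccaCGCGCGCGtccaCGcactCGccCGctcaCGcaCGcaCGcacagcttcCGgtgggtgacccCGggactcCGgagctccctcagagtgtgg
Tex19.2: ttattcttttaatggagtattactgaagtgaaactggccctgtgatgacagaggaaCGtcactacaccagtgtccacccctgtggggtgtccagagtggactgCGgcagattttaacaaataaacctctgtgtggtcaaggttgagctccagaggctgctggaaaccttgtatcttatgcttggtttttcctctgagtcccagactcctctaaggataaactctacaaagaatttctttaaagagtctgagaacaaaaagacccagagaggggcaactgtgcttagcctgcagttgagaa

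By its labels, the comparison of busulfan with control sets testis given the drug against testis without it. Of the 65 members tested, 41 were higher in the libraries labelled busulfan, 14 were lower and 10 were not called, by limma with Benjamini-Hochberg adjustment over all 14675 genes tested. Over all genes, 12.4% were called higher and 51.4% lower. The median log2 change was 1.20 over the members and -0.51 over all genes, so most genes lay lower in busulfan as deposited while most members lay higher. Busulfan and control libraries did not overlap in 44 members that were higher and 15 that were lower, against 16.1% and 60.7% of all genes. In whole testis, a larger share of spermatids and more RNA per spermatid cannot be told apart. Scaling changes the counts of lower members. Of all calls among the members, 74.5% were higher with the values as deposited and 86.4% with quantile normalization. The share was 95.6% with median scaling of the libraries and 100% with scaling to Sertoli markers. Calls over all genes moved the same way. They were 1814 higher and 7536 lower as deposited, and 2448 and 2761 with quantile normalization. With median scaling they were 3102 and 1980, and with Sertoli marker scaling 6024 and 33. The Sertoli markers were themselves called lower in 20 of 20 as deposited, with a median of -1.51, so dividing by them raises other genes too. Scaling to them raised the median change of all genes to 0.90. Under it all 14 members called lower had positive changes, between 0.16 and 1.24, and 0 of the 14 were called higher. Under every scaling all 41 members called higher kept positive changes.

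**Figure D1:**
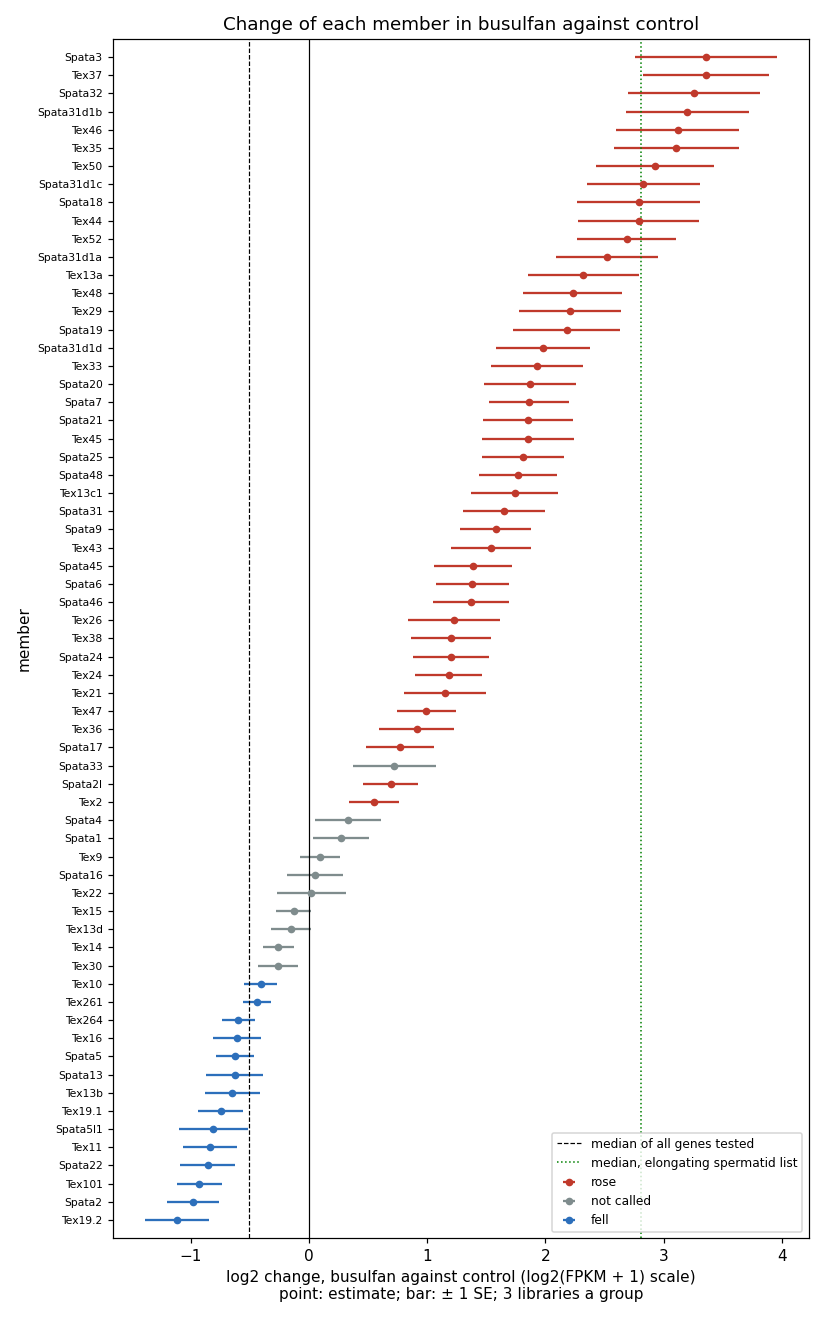
Log2 change of each of the 65 members in busulfan against control on the log2(FPKM + 1) scale, with bars of 1 SE and 3 libraries a group; the dashed line is the median of all genes tested (-0.51) and the dotted line that of the elongating spermatid markers (2.81). Red members rose, blue members fell as deposited and grey members were not called. All 14 blue members turn positive, with 0 called higher, when libraries are scaled to Sertoli markers.

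The spermatid genes set the scale for these changes. Among 24 elongating spermatid markers, which include no member, 22 were higher in busulfan and 0 lower, with a median log2 change of 2.81. Prm1, a protamine that packs sperm DNA, changed by 3.19 ± 0.67 (log2, SE; limma, adjusted p = 0.00467). Among 20 round spermatid markers 14 were higher and 0 lower, with a median of 1.29. The shares over all genes were 12.4% higher and 51.4% lower. Of the 41 members that rose, 8 reached the elongating median, namely Spata3, Spata31d1b, Spata31d1c, Spata32, Tex35, Tex37, Tex46 and Tex50. Another 23 lay between the medians and 10 lay under the round spermatid median, so the risers lay on both sides of each median.

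Spata3 and Tex37 had the largest increases. Spata3 (gene 70060, chr1:86018031-86029961) had 895, 1397 and 1183 FPKM in the busulfan libraries, against 92.7, 238 and 60.1 FPKM in the control libraries. On the log2(FPKM + 1) scale its change was 3.36 ± 0.60 (SE, adjusted p = 0.00381 by limma). Every busulfan library lay above every control library, and control replicate 2 was the highest of the controls. Tex37 (gene 74221, chr6:70913089-70951095) had 177, 214 and 226 FPKM in the busulfan libraries, against 16.6, 41.9 and 9.79 FPKM in the control libraries, a log2 change of 3.36 ± 0.53 (adjusted p = 0.00381). Here too the groups were apart and control replicate 2 was the highest control. That library also had the highest spermatid marker level of the controls, at 7.43 against 6.19 and 5.71 on the log2 scale, and the part of the marker level in the members' values was not tested.

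A list of members with a role in spermatids or sperm structure was written by hand, with earlier results of these data known. Its counts are therefore no test of that role. Of its 19 members tested 17 rose, 0 fell and 2 were not called, with a median log2 change of 1.87. Over all genes 12.4% rose and 51.4% fell. Spata18 (gene 73472, chr5:73651380-73679584), also called Mieap, is known for mitochondrial quality control. It had 263, 219 and 247 FPKM in the busulfan libraries, against 26.9, 79.6 and 18.4 FPKM in the control libraries, a log2 change of 2.79 ± 0.52 (limma, adjusted p = 0.00387). Spata19, a protein of mitochondria in the sperm midpiece, had 271, 191 and 275 FPKM in the busulfan libraries, against 44.3, 95.3 and 34.6 FPKM in the control libraries, a log2 change of 2.18 ± 0.45 (adjusted p = 0.00457). The groups did not overlap for either mitochondrial gene, and control replicate 2 was the highest control for both. Spata6 (gene 67946, chr4:111719951-111829142), needed for the connecting piece between sperm head and tail, had 414, 386 and 402 FPKM in the busulfan libraries, against 137, 208 and 126 FPKM in the control libraries, a log2 change of 1.38 ± 0.31 (adjusted p = 0.00569). Spata46, a protein of the sperm head, had 125, 97.8 and 128 FPKM in the busulfan libraries, against 42.3, 59.9 and 34.4 FPKM in the control libraries, a log2 change of 1.37 ± 0.32 (adjusted p = 0.006). Neither gene overlapped between the groups, and both log2 changes lay under the elongating spermatid median of 2.81. Tex43, found among the proteins inside the microtubules of the sperm tail, had 62.2, 51.9 and 64.3 FPKM in the busulfan libraries, against 18.2, 29.9 and 13.8 FPKM in the control libraries, a log2 change of 1.54 ± 0.34 (adjusted p = 0.00544). Spata48, also a protein of the tail microtubules but in none of the hand-written lists, had 76.0, 92.8 and 89.7 FPKM in the busulfan libraries, against 24.1, 32.1 and 18.8 FPKM in the control libraries, a log2 change of 1.77 ± 0.33 (adjusted p = 0.00386), and 12% of its exon bases overlap Zpbp on the other strand. Neither tail gene overlapped between the groups. Tex38, a partner of a palmitoyl transferase in spermatids, had 86.4, 131 and 107 FPKM in the busulfan libraries, against 52.9, 52.5 and 34.6 FPKM in the control libraries, a log2 change of 1.20 ± 0.34 (adjusted p = 0.0119). It lost its call only when control replicate 3 was left out.

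Further increases among the largest belonged to members whose function is less known. Of these, Tex46, Spata32, Tex35 and Tex44 are in the list above, while Tex50 and Tex52 are in no role list. Tex46 had 52.3, 54.0 and 55.3 FPKM in the busulfan libraries, against 4.15, 12.8 and 2.52 FPKM in the control libraries, a log2 change of 3.12 ± 0.52 (limma, adjusted p = 0.00381). Its busulfan libraries lay close together while the control libraries spread over a wide range. Spata32 had 138, 194 and 164 FPKM in the busulfan libraries, against 12.4, 38.0 and 8.68 FPKM in the control libraries, a log2 change of 3.26 ± 0.56 (adjusted p = 0.00381). Tex35 had 335, 558 and 453 FPKM in the busulfan libraries, against 42.6, 103 and 28.4 FPKM in the control libraries, a log2 change of 3.11 ± 0.53 (adjusted p = 0.00381). In both genes control replicate 3 was the lowest of all busulfan and control libraries. Tex50 had 119.8, 135 and 138 FPKM in the busulfan libraries, against 14.2, 33.8 and 8.60 FPKM in the control libraries, a log2 change of 2.93 ± 0.50 (adjusted p = 0.00381). Tex44 and Tex52 had log2 changes of 2.79 ± 0.51 and 2.69 ± 0.42 (adjusted p = 0.00386 and 0.00381), and 7.68% of the exon bases of Tex52 overlap Foxm1 on the same strand. The groups were apart in all 3 of these genes.

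All 5 genes of the Spata31 family rose, with log2 changes from 1.65 for Spata31 to 3.20 for Spata31d1b. These are multicopy genes on chromosome 13, and any reads shared between copies could be split between them in a way that is not recorded. How alike their sequences are was not tested. Among the 23 members in none of the hand-written role lists, 19 rose, 0 fell and 4 were not called, with a median log2 change of 1.77. Over all genes 12.4% were called higher and 51.4% lower.

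Members with general work in many tissues were divided. Of the 13 in that list 4 rose and 7 fell as deposited, with a median log2 change of -0.41 that was 0.21 with median scaling and 1.24 with Sertoli marker scaling. Over all genes 12.4% rose and 51.4% fell, with a median of -0.51, so the share that fell lay near that of the whole table. Spata7 (gene 104871, chr12:98628129-98669819), known from the connecting cilium of photoreceptors, had 252, 194 and 228 FPKM in the busulfan libraries, against 57.1, 90.9 and 43.5 FPKM in the control libraries, a log2 change of 1.86 ± 0.34 (limma, adjusted p = 0.00386). The other risers of the list were Spata24, Spata2l and Tex2, with log2 changes of 1.20, 0.69 and 0.55. In the annotation 41.9% of the exon bases of Spata24 lie in a second gene model on the same strand. Tex2, a lipid transfer protein at contacts of the endoplasmic reticulum, had 136, 131 and 126 FPKM in the busulfan libraries, against 84.6, 101 and 82.7 FPKM in the control libraries. Its log2 change of 0.55 ± 0.21 (adjusted p = 0.0425) was the smallest of the 41, although the groups did not overlap. It lay just inside the threshold. Spata33, which ties calcineurin to sperm mitochondria, lay outside it with a larger change. It had 826, 909 and 1030.5 FPKM in the busulfan libraries, against 595, 632 and 456 FPKM in the control libraries, a log2 change of 0.72 ± 0.35 (adjusted p = 0.0895), and those groups did not overlap either. Spata17 was also near the threshold, with a log2 change of 0.77 ± 0.29 (adjusted p = 0.0385). Left out in turn, single libraries kept 34 of the 41 higher calls in every fit. Spata17, Spata2l, Tex2, Tex21, Tex26, Tex36 and Tex38 lost theirs without control replicate 3 (adjusted p from 0.0526 to 0.121), and some of them also without control replicate 1, any busulfan library or any busulfan plus L.J. library.

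Several abundant members were not called in either direction. Spata4 (gene 69281, chr8:54600781-54610098) had 988, 899 and 996 FPKM in the busulfan libraries, against 711, 887 and 699 FPKM in the control libraries, a log2 change of 0.33 ± 0.28 (limma, adjusted p = 0.304). Spata16, a protein of the Golgi apparatus and the forming acrosome, had 166, 185 and 169.6 FPKM in the busulfan libraries, against 158, 186 and 157 FPKM in the control libraries, a log2 change of 0.05 ± 0.24 (adjusted p = 0.849). Spata1 had 151, 149 and 150.4 FPKM in the busulfan libraries, against 120.0, 138 and 118 FPKM in the control libraries, a log2 change of 0.27 ± 0.24 (adjusted p = 0.333). Spata16 overlapped between the groups, while every busulfan library of Spata4 and Spata1 lay just above their control libraries. Tex14, required for the bridges between germ cells, had 19.0, 18.8 and 17.7 FPKM in the busulfan libraries, against 23.03, 22.11 and 22.03 FPKM in the control libraries, a log2 change of -0.26 ± 0.13 (adjusted p = 0.0993). Tex15, a factor of recombination and transposon silencing, had 25.5, 22.3 and 20.5 FPKM in the busulfan libraries, against 24.9, 25.5 and 24.6 FPKM in the control libraries, a log2 change of -0.13 ± 0.15 (adjusted p = 0.447). All busulfan libraries of Tex14 lay below its control libraries, whereas those of Tex15 overlapped. Over the 10 members not called the changes ran from -0.26 to 0.72, with a median of 0.04. These are directions relative to a median of all genes at -0.51, and all 10 were positive when libraries were scaled to their medians. Spata33, Spata1, Spata4 and Tex14 were called when L.J. replicate 3 was left out of the fit, which changes only the shared estimate of the spread.

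The 14 members that fell as deposited are in the hand-written lists of spermatogonia and meiosis and of general work. Of the 10 with a role in spermatogonia or meiosis, 7 fell and 1 rose, with a median log2 change of -0.70 that was 0.72 with Sertoli marker scaling, where those 7 turned positive. The figures for all genes as deposited were 51.4% lower, 12.4% higher and a median of -0.51, and the difference of the list from them was not tested. Tex19.2 (gene 70956, chr11:121116215-121118677), a paralogue of the transposon repressor Tex19.1, had 4.43, 4.15 and 4.57 FPKM in the busulfan libraries, against 10.0, 10.1 and 12.2 FPKM in the control libraries, a log2 change of -1.12 ± 0.27 (limma, adjusted p = 0.00704). Tex101 (gene 56746, chr7:24668012-24672050), a membrane-anchored protein of germ cells, had 116, 76.7 and 96.9 FPKM in the busulfan libraries, against 179, 183 and 185 FPKM in the control libraries, a log2 change of -0.93 ± 0.19 (adjusted p = 0.0046). Both had groups that did not overlap, and the control libraries of Tex101 lay within a narrow range. Spata22, which works with MEIOB in meiotic recombination, had 13.6, 9.15 and 11.0 FPKM in the busulfan libraries, against 19.6, 24.2 and 19.4 FPKM in the control libraries, a log2 change of -0.86 ± 0.23 (adjusted p = 0.00991), and 80.5% of its exon bases overlap the gene model Gm49340 on the same strand. Tex11, an X-linked factor of meiotic crossovers, had 4.10, 3.24 and 3.58 FPKM in the busulfan libraries, against 7.26, 5.61 and 9.42 FPKM in the control libraries, a log2 change of -0.84 ± 0.23 (adjusted p = 0.0108), and lost its call without control replicate 3. Neither recombination gene overlapped between the groups. Tex19.1 had a log2 change of -0.75 ± 0.19 (limma, adjusted p = 0.00741). How any reads shared by the Tex19 paralogues were assigned is unknown. The marker lists of the same stages, also written by hand, are given for scale. Of 22 meiotic spermatocyte markers 10 fell and 2 rose, with a median of -0.44, which was 0.13 with median scaling and 1.19 with Sertoli marker scaling. Of 13 spermatogonial markers 8 fell and 0 rose, with a median of -0.77, which was 0.60 with Sertoli marker scaling.

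As deposited, the X-linked Tex13 genes were not called in a single direction. Tex13a (gene 67944, chrX:138208158-138209580) had 84.9, 161 and 114 FPKM in the busulfan libraries, against 24.9, 31.3 and 14.4 FPKM in the control libraries, a log2 change of 2.32 ± 0.47 (limma, adjusted p = 0.00434). It was the only riser of the spermatogonia and meiosis list. Tex13c1 rose as well, with a log2 change of 1.74 ± 0.37 (adjusted p = 0.00477). Tex13b had 4.16, 2.52 and 3.37 FPKM in the busulfan libraries, against 6.51, 4.45 and 6.42 FPKM in the control libraries, a log2 change of -0.65 ± 0.23 (adjusted p = 0.0276), which was lost when control replicate 1 or 3 or busulfan replicate 2 or 3 was left out. The low-level Tex13d had a log2 change of -0.15 ± 0.17 (adjusted p = 0.442). Over the 6 X-linked members tested, 2 rose and 3 fell as deposited, against 12.4% and 51.4% of all genes, and the 3 that fell, Tex11, Tex13b and Tex16, turned positive under Sertoli marker scaling.

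Among members with general functions that fell as deposited, Spata2, a bridge between the deubiquitinase CYLD and the linear ubiquitin complex (gene 263876, chr2:167481136-167493238), changed most. It had 3.75, 3.41 and 3.31 FPKM in the busulfan libraries, against 7.51, 6.90 and 9.41 FPKM in the control libraries, a log2 change of -0.98 ± 0.22 (limma, adjusted p = 0.00578). The related Spata5 and Spata5l1, AAA ATPases of ribosome maturation, had log2 changes of -0.63 ± 0.16 and -0.81 ± 0.29 (adjusted p = 0.00817 and 0.031). Spata5l1 was near the limit of detection, at 1.37, 0.42 and 1.00 FPKM in busulfan and 2.32, 2.07 and 2.56 FPKM in control. Tex264, a receptor for autophagy of the endoplasmic reticulum, had 25.9, 20.2 and 21.8 FPKM in the busulfan libraries, against 31.9, 33.1 and 38.9 FPKM in the control libraries, a log2 change of -0.60 ± 0.14 (adjusted p = 0.0069). Tex261 and Tex10 had log2 changes of -0.44 and -0.41, both less negative than the median of all genes. Of the 14 lower calls 8 held in every fit with a library left out. Spata13, Spata5l1, Tex10, Tex11, Tex13b and Tex16 lost theirs without control replicate 3 (adjusted p from 0.0513 to 0.163), and some of them also without control replicate 1, any busulfan plus L.J. library, or busulfan replicate 2 or 3.

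The order of levels also differed between groups. Spata3 had the highest mean of all members in busulfan, at 1159 FPKM, and in busulfan plus L.J., at 1405 FPKM. In L.J. and in control the highest was Spata4, at 760.5 and 765.6 FPKM. In busulfan and in busulfan plus L.J. 26 members each averaged at least 100 FPKM, against 12 in L.J. and 10 in control. The members' share of all FPKM was 1.92% to 2.03% in the busulfan libraries, 1.96% to 2.06% with busulfan plus L.J., 1.11%, 1.60% and 0.657% in L.J. replicates 1 to 3, and 0.900%, 1.16% and 0.788% in control replicates 1 to 3. The map of levels shows the same, with L.J. replicate 2 between the groups. The risers are bright in the busulfan columns, which follows from their choice by busulfan against control.

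**Figure D2:**
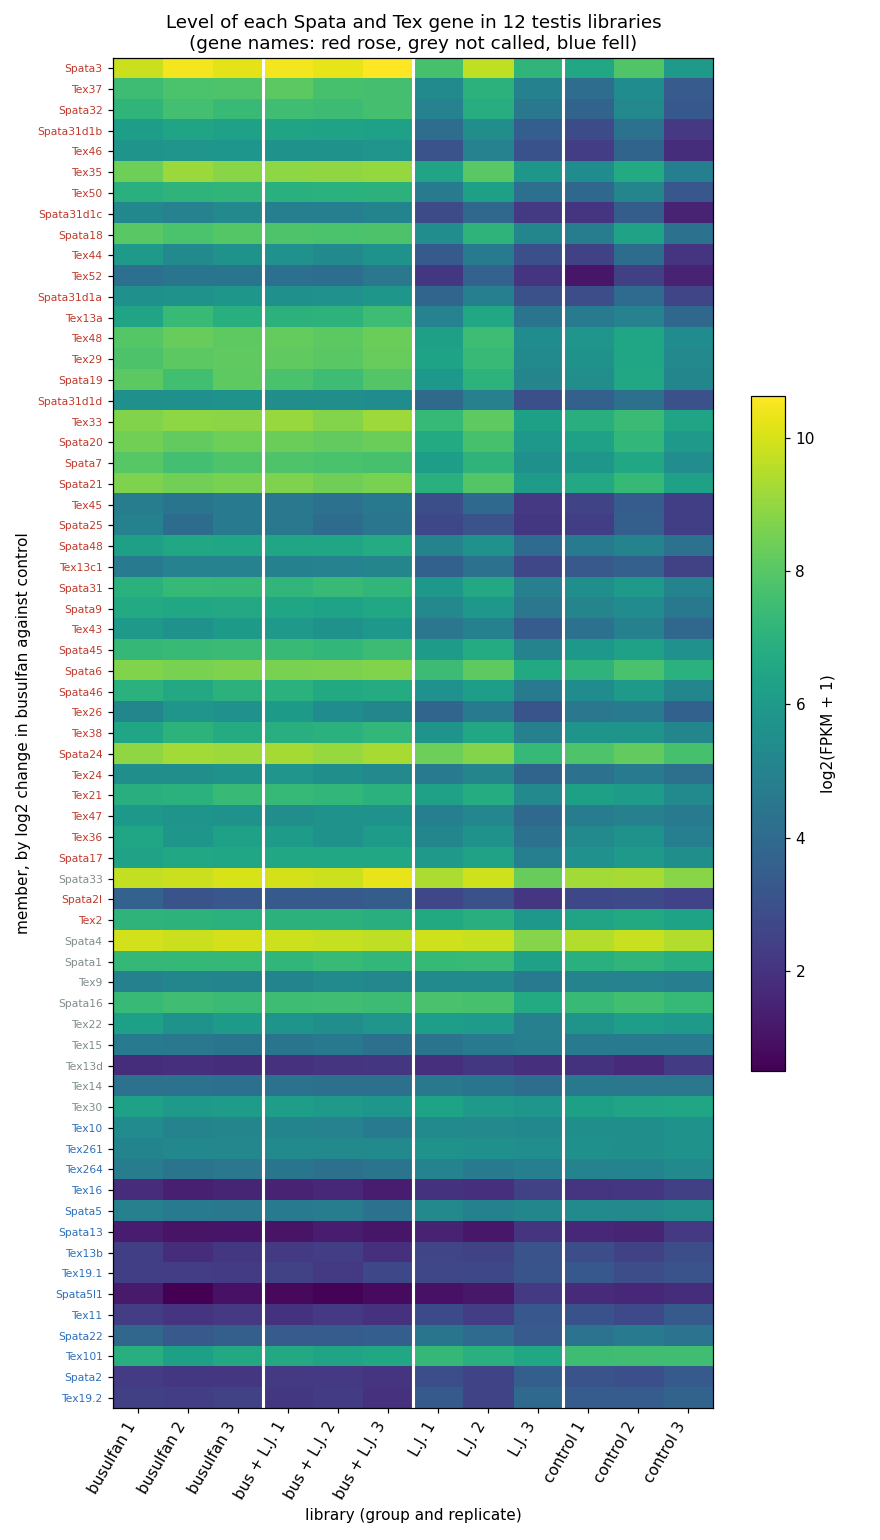
Level of each of the 65 members tested, as log2(FPKM + 1), in the 12 libraries, with members ordered by their change in busulfan against control. Red names rose, grey were not called and blue fell as deposited (positive under Sertoli marker scaling); the busulfan and busulfan plus L.J. columns are bright for the risers and control replicate 3 and L.J. replicate 3 are dark.

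Setting busulfan plus L.J. against L.J. compares, by the labels, the same drug in libraries that the split of members did not use, within a fit that shares its estimate of the spread with all groups. Of the 41 members that rose in busulfan against control, 40 were called higher and 0 lower. Of the 14 that fell, 8 were called lower and 0 higher, and none of the 10 others was called. Over all genes 11.7% were called higher and 39.8% lower. Genes chosen in the same way are the closer background. Of all 1814 genes that rose in busulfan against control, 1548 were called higher here and 0 lower. Of all 7536 that fell, 5539 were called lower and 0 higher. The median log2 change of the 41 was 1.59, that of the 14 was -0.52 and that of all genes was -0.40. All 41 risers had groups that did not overlap, and 10 of the 14 that fell did so in the other direction, against 13.8% and 48.6% of all genes. For all genes that rose the count was 1613 of 1814, and for all that fell 6245 of 7536. Across the 65 members the changes in both comparisons had a Pearson r of 0.97 and a Spearman rho of 0.98, and across all 14675 genes 0.93 and 0.92, as a description of genes that are not independent.

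Spata3 had 1396, 1236 and 1584 FPKM in the busulfan plus L.J. libraries, against 203, 819 and 140.4 FPKM in the L.J. libraries, a log2 change of 2.29 ± 0.60 (limma, adjusted p = 0.0161). Tex37 had 266, 203 and 198 FPKM in the busulfan plus L.J. libraries, against 39.7, 128 and 30.2 FPKM in the L.J. libraries, a log2 change of 2.01 ± 0.53 (adjusted p = 0.016). In both genes L.J. replicate 2 lay well above the other L.J. libraries and still below every busulfan plus L.J. library. Tex19.2 had 3.46, 3.80 and 2.86 FPKM in the busulfan plus L.J. libraries, against 9.49, 5.02 and 14.5 FPKM in the L.J. libraries, a log2 change of -1.19 ± 0.27 (adjusted p = 0.0152). Spata2 had 3.70, 3.50 and 3.12 FPKM in the busulfan plus L.J. libraries, against 6.62, 4.96 and 10.8 FPKM in the L.J. libraries, a log2 change of -0.87 ± 0.22 (adjusted p = 0.0158). For these falling genes L.J. replicate 3 was the highest library. Tex101 and Spata22 were not called here, with log2 changes of -0.40 ± 0.19 and -0.50 ± 0.23 (adjusted p = 0.0962 and 0.0869). Tex2 missed the threshold as well, at 0.49 ± 0.21 (adjusted p = 0.0698).

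These calls rest on the shared spread. In a fit of only the 6 libraries compared no gene of all was called, and the risers had adjusted p from 0.0780 to 0.177 by limma, with 39 of 41 under an unadjusted p of 0.05. Without busulfan plus L.J. replicate 3 no gene of all was called either, and the 40 called higher had adjusted p from 0.0544 to 0.102. All 41 risers kept positive changes in both fits.

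The L.J. libraries differed among themselves in the members. L.J. replicate 2 was the highest and replicate 3 the lowest of the 3 L.J. libraries in all 41 members that rose in busulfan, in 4 of the 10 not called and in 0 of the 14 that fell. This order was noticed in the values first. It held for 45 of 65 members against 19.0% of all genes, and for 1450 of the 1814 genes of the whole table that rose. In the control libraries the same order of replicates held for 44 of 65 members, also against 19.0% of all genes. The median difference of replicate 2 minus replicate 3 was 1.69 on the log2 scale for the members that rose, -0.52 for those that fell and -0.31 for all genes. Across the 65 members, this difference and the change in busulfan against control, which share no library, had a Pearson r of 0.90 and a Spearman rho of 0.94. Across all genes the values were 0.83 and 0.85. The elongating spermatid level was 8.22 in replicate 2 and 6.31 in replicate 3, the Sertoli level 4.55 and 6.63, and their part in these differences was not tested.

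**Figure D3:**
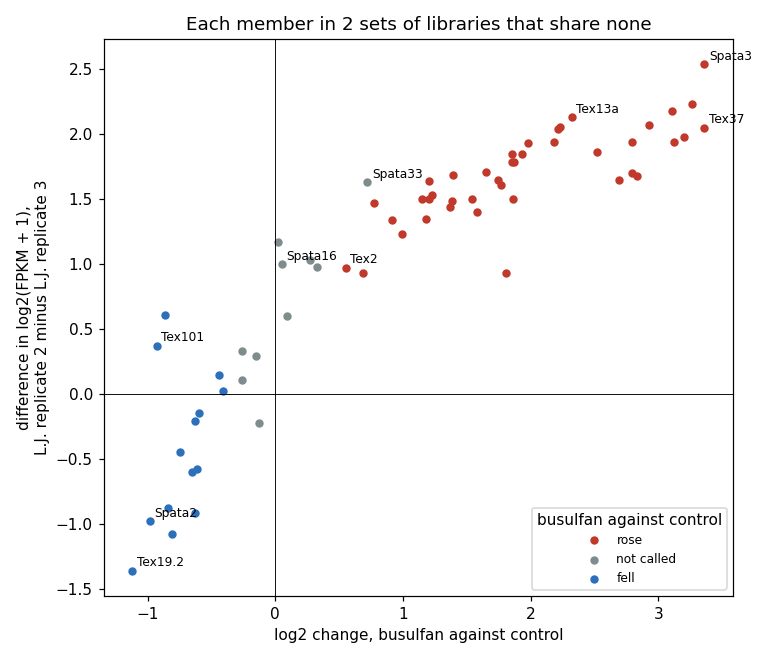
Difference in log2(FPKM + 1) between L.J. replicates 2 and 3 (vertical) against the log2 change in busulfan against control (horizontal) for each of the 65 members, in libraries that share none. Members that rose lie at the upper right (median difference 1.69) and members that fell as deposited, positive under Sertoli marker scaling, mostly at the lower left (median -0.52).

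**Figure D4:**
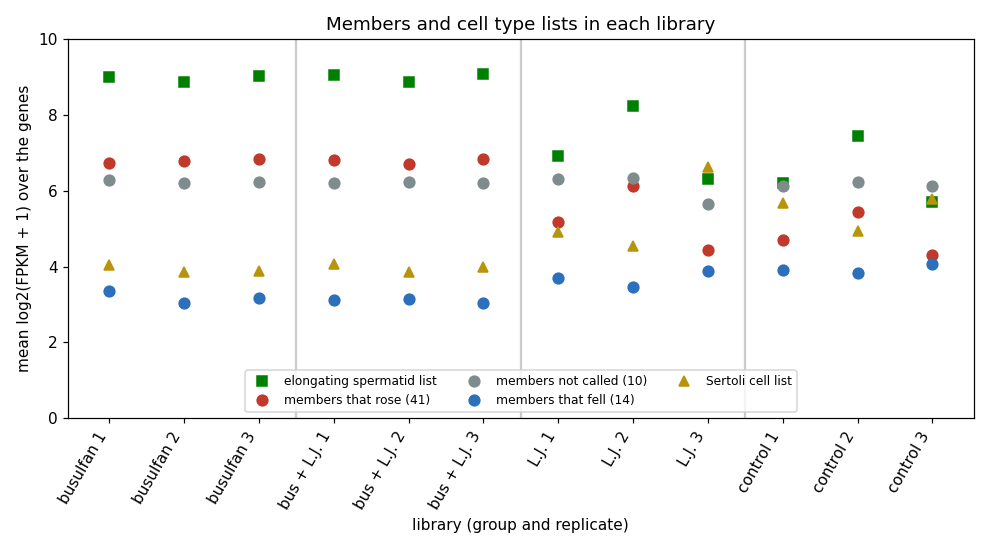
Mean log2(FPKM + 1) in each library over the 41 members that rose, the 10 not called, the 14 that fell as deposited (positive under Sertoli marker scaling), the elongating spermatid list and the Sertoli cell list. The classes were set by busulfan against control, so their places in those libraries follow from that choice. Within the L.J. and the control group the risers have the same order of replicates as the elongating spermatid list. The members that were not called lie between 5.64 and 6.33.

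The plot of group means by library shows the classes side by side. They were set by busulfan against control, so their gap between those groups follows from that choice. The members that rose averaged 6.73 to 6.84 on the log2 scale in the busulfan libraries, 6.70 to 6.83 with busulfan plus L.J., 5.17, 6.13 and 4.43 in L.J. replicates 1 to 3, and 4.71, 5.45 and 4.31 in control replicates 1 to 3. The members that fell averaged 3.05 to 3.36, 3.04 to 3.14, 3.71, 3.46 and 3.89, and 3.90, 3.82 and 4.07 in the same order of libraries. In both the L.J. and the control group replicate 2 was the highest for the risers and the lowest for the members that fell.

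Against control, busulfan plus L.J. gave 40 members higher and 13 lower, where 13.0% and 53.5% of all genes were called. This comparison shares its control libraries with that of busulfan against control, so the values stand side by side only. Spata3 had a log2 change of 3.66 ± 0.60 with busulfan plus L.J. and 3.36 ± 0.60 with busulfan, and Tex19.2 had -1.43 ± 0.27 and -1.12 ± 0.27. Spata33 was called here, with a log2 change of 0.93 ± 0.35 (limma, adjusted p = 0.0351), and lost the call when any busulfan plus L.J. library, control replicate 1 or control replicate 3 was left out.

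By the labels, busulfan plus L.J. against busulfan asks whether L.J. changes the testis given the drug. No member was called by limma, and 0 members had an unadjusted p under 0.05. Over all genes 0.0% were called and 109, 0.743%, had an unadjusted p under 0.05. Log2 changes of the members ran from -0.30 to 0.31, with 25 of 65 positive against 39.5% of all genes. A fit of only these 6 libraries called 1 gene of the whole table, and that gene was no member. Spata3 had 1396, 1236 and 1584 FPKM in the busulfan plus L.J. libraries, against 895, 1397 and 1183 FPKM in the busulfan libraries, and these values overlapped, with a log2 change of 0.29 ± 0.60. The SEs of the members' changes were 0.12 to 0.60 in the fit of all 12 libraries, whose spread is shared with the L.J. and control groups. They were 0.09 to 0.24 in the fit of only the 6 libraries, where members had adjusted p of at least 0.905 by limma. In that fit 1 member, among those that fell, had an unadjusted p under 0.05. The SEs of either fit limit the size of a difference that can be shown.

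L.J. against control called no member by limma either, with 0.0% of all genes called. Here 6 members and 715 genes of all, 4.87%, had an unadjusted p under 0.05. Of these 6, Spata3, Spata31d1b, Spata32, Tex37 and Tex52 were higher and Tex101 was lower. The groups did not overlap in 4 members that were lower, Spata5, Tex10, Tex101 and Tex264, and in 0 that were higher, against 7.97% and 1.1% of all genes. Tex101 had the smallest p of the 6 at 0.00992 unadjusted, with 152, 121 and 93.7 FPKM in the L.J. libraries, against 179, 183 and 185 FPKM in the control libraries, a log2 change of -0.60 ± 0.19 (limma, adjusted p = 0.843). All its L.J. libraries lay below its control libraries. Tex37 had 39.7, 128 and 30.2 FPKM in the L.J. libraries, against 16.6, 41.9 and 9.79 FPKM in the control libraries, a log2 change of 1.45 ± 0.53 (adjusted p = 0.843). L.J. replicate 2 was far above the others, while L.J. replicates 1 and 3 lay inside the control range. The interaction, which asks whether the effect of L.J. differs between the busulfan groups and the others, called no member and 0.0% of all genes by limma, with 0 members and 182 genes of all, 1.24%, at an unadjusted p under 0.05.

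The start regions of the risers held few CG dinucleotides. This count and its limit of 10 were chosen after the values were seen. A RefSeq window was found for 58 of the 66 members. The median count per 300 bases was 4 over 36 members that rose, 18.5 over 8 not called and 21 over 13 that fell, against 19 over all genes tested. At most 10 CG dinucleotides were found in 29 of 36 risers, 3 of 8 not called and 2 of 13 that fell, Tex16 and Tex19.2. The members follow the table as a whole in this, where the median was 7 for genes that rose, 17 for those not called and 21 for those that fell. The elongating spermatid markers had a median of 3. Among the risers, Tex2 had 41, Spata17 and Spata18 had 30 each, and Spata7 had 17.

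**Figure D5:**
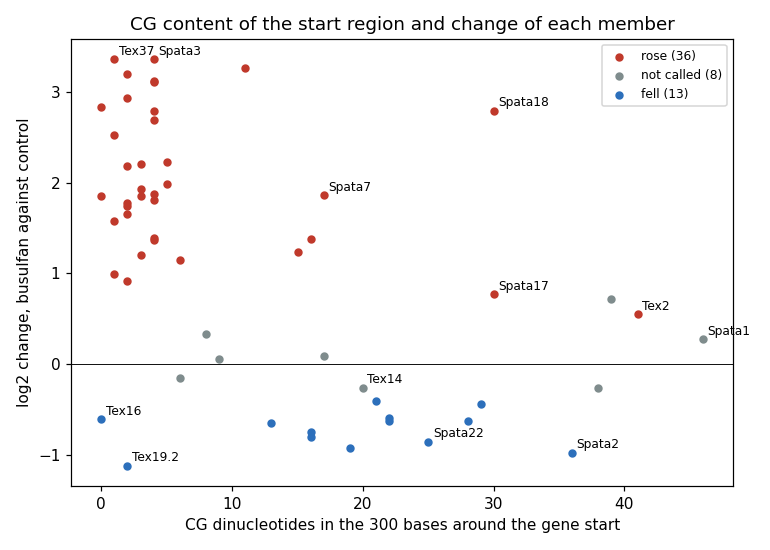
CG dinucleotides in the 300 bases around the gene start (horizontal) against the log2 change in busulfan against control (vertical) for the 57 members tested that have a window. Most members that rose (red) have at most 10, and most that fell as deposited (blue, positive under Sertoli marker scaling) have more; Spata18, Spata17, Spata7 and Tex2 rose with many, and Tex16 and Tex19.2 fell with few.

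Short motifs were searched on both strands of the same windows, also after values were seen. The cAMP response element TGACGTCA was found in 1 of 58 members, Spata7, beginning 7 bases before the start, within the sequence printed above for that gene. It is in 1.88% of all windows in the table and 3.05% of those of genes tested. The shorter TGACG, which lies within it, was in 22.4% of members, 21.0% of all windows and 29.0% of those of genes tested. GTTGCC, a core of the site of regulatory factor X proteins, was in 15.5% of members and 12.7% of all windows. Its share in the windows of genes tested lay between these values. TATAAA was in 8.62% of members, 14.2% of all windows and 7.64% of those of genes tested. For TGACG and TATAAA, whether members lay above or below the background thus depended on which windows were taken. These are matches of letters in the windows and nothing more.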

How the data were processed

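RNA of 12 testis libraries in 4 labelled groups of 3 was measured by sequencing. The authors deposited 1 FPKM value per gene and library, per the file headers, with 2 decimals. Alignment used Bowtie 0.12.2 and the build mm10, per the submitters' processing notes. For the quantifier, its annotation, its use of strand and any scaling, the sources used here give nothing. Low values gave no steps of whole reads, so the depth is unknown and no counting error is given. The table has 0 value columns without a sample.

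No scaling was added, and the deposited values were put on the log2(FPKM + 1) scale, which understates changes of low genes. Genes with at least 1 FPKM in at least 3 libraries were kept (14675 of 21004). All 12 libraries and 4 groups entered 1 limma 3.58.1 fit in R 4.3.3 with trend (8 residual and 3.4 prior degrees of freedom), without a block. Benjamini-Hochberg adjustment ran over every gene tested, with a threshold of 0.05. Simulated data with this layout, in 12 draws of 14675 genes of which 200 changed in busulfan against control, were used to test it. On average it recovered 77.8% of genes changed by 1.5 and 94.3% of genes changed by 3 on the log2 scale. Unchanged genes made up 5.49% of the calls on average and 1.78% to 9.60% in single draws. The simulated noise was independent between genes and had the same spread in every group. In the data 9350 genes were called in that comparison and the spread differed by group, as for Tex46 with an SD of 1.54 FPKM in busulfan and 13.4 FPKM in L.J. Whether the simulated shares hold for such data was not tested.

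The members, the role and marker lists, the rule for named genes and the tests were chosen with earlier results of these data known. The rule named the 10 members that rose most and the 6 that fell most among calls whose groups do not overlap. The Spata31 genes, being multicopy genes, were kept out of that ranking and described as a group. Also named were the members of the role lists and the 4 most abundant members not called. So were members called in the comparisons of L.J. (there were 0) and members removed by the filter. Members near the threshold and others outside the rule (Spata17, Spata48, Tex13c1, Tex13d, Tex26 and single Spata31 genes) were chosen after their values were seen. The role lists held Tex40 and Tex54, which were not found. The Leydig cell marker list was also read (10 of 10 lower in busulfan than in control). So were those of macrophages (8 of 8), peritubular myoid cells (5 of 5) and epididymis (1 of 2). The share over all genes was 51.4% lower. After Sertoli marker scaling 0 genes of the first 3 of these lists were called. Each result was recomputed with quantile normalization, with library medians or Sertoli markers as the scale, with limma's robust option and no trend, with a replicate block, from the compared groups only, with 0.1 or 5 as the pseudocount, unfiltered, with at least 5 FPKM required, and with each library left out. A fit without L.J. replicates 2 and 3 was added after seeing the data. Start regions and positions are from RefSeq GRCm38.p6, where 66 of 66 member identifiers matched. Exon overlaps are from GENCODE vM21. Besides those named with their genes, the overlaps of at least 5% of exon bases are on the same strand 17.5% of Tex30 with Gm29247 and 5.17% of Tex52 with Gm44596, and on the other strand 32.3% of Tex9 with Mns1, 21.5% of Spata25 with Zswim1, 11.6% of Spata2l with Cdk10, 11.1% of Spata4 with 5330439A09Rik, 8.13% of Spata5 with Nudt6 and 5.16% of Tex10 with Invs. Python 3.11.15 with matplotlib 3.10.9 drew the figures. One symbol of the naming pattern is not reported here.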

Additional observations from a re-analysis of the deposited data

How the results depend on the processing

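Of the counts, 41 members higher in busulfan than in control held within 1.5 times under every alternative run, as did 40 higher in busulfan plus L.J. than in control. No alternative called a member in busulfan plus L.J. against busulfan, L.J. against control or the interaction, for which a fit of only the groups compared was not run because it needs all 4 groups. The count of 14 lower in busulfan than in control became 6 with quantile normalization, 2 with median scaling, 0 with Sertoli marker scaling, and 8 to 15 with a library left out. In busulfan plus L.J. against L.J. the 40 higher were 0 in a fit of the groups compared only and 0 to 42 with a library left out. The 8 lower were 0 in that fit, 2 after quantile normalization, 2 after median scaling, 0 after Sertoli marker scaling and 0 to 10 with a library left out. In busulfan plus L.J. against control the 13 lower were 8 with quantile normalization, 3 with median scaling and 0 with Sertoli marker scaling. Scaling moves all genes together (the median of all genes was 0.01, -0.16 and 0.90 under median, quantile and Sertoli scaling); other causes were not tested.

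Replicate numbers did not pair the samples throughout. Deviations of same-numbered libraries correlated from -0.18 to 0.76, over 0.1 in 5 of 18 pairs, and 6 of 18 correlated best with their own number. The highest values, 0.76 for number 2 and 0.62 for number 3, were both between L.J. and control, where number 1 gave -0.18. Whether those numbers mark a shared origin was not tested. With the replicate number as a block, 41 members were higher and 14 lower in busulfan than in control, while busulfan plus L.J. gave 41 and 9 against L.J. and 41 and 14 against control.

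Log2 changes of named members that turned sign were these. After Sertoli marker scaling, the log2 change in busulfan against control was 0.35 for Tex19.2, 0.43 for Spata2, 0.75 for Tex101, 0.72 for Spata22, 0.57 for Tex11, 0.16 for Spata5l1, 0.44 for Spata13, 1.01 for Spata5, 1.24 for Tex10, 0.72 for Tex13b, 1.34 for Tex14, 1.48 for Tex15, 0.60 for Tex16, 0.68 for Tex19.1, 1.21 for Tex261, 1.03 for Tex264 and 1.41 for Tex30. Under Sertoli marker scaling, the log2 change in busulfan plus L.J. against L.J. was 0.10 for Tex19.2, 0.39 for Spata2, 1.10 for Tex101, 0.84 for Spata22, 0.47 for Tex11, 0.08 for Spata5l1, 0.50 for Spata13, 0.91 for Spata5, 1.08 for Tex10, 0.62 for Tex13b, 1.27 for Tex14, 1.24 for Tex15, 0.42 for Tex16, 0.88 for Tex19.1, 1.21 for Tex261, 0.96 for Tex264 and 1.41 for Tex30. After median scaling, the log2 change in busulfan against control was 0.21 for Tex10, 0.34 for Tex14, 0.47 for Tex15, 0.17 for Tex261, 0.01 for Tex264 and 0.36 for Tex30. Under median scaling, the log2 change in busulfan plus L.J. against L.J. was 0.12 for Tex101, 0.13 for Tex10, 0.36 for Tex14, 0.31 for Tex15, 0.07 for Tex19.1, 0.25 for Tex261, 0.03 for Tex264 and 0.44 for Tex30. After quantile normalization, the log2 change in busulfan against control was -0.22 for Spata16, 0.04 for Tex14, 0.14 for Tex15 and -0.22 for Spata4. Under quantile normalization, the log2 change in busulfan plus L.J. against L.J. was -0.16 for Spata16, 0.19 for Tex14, 0.05 for Tex15, 0.10 for Tex19.1 and -0.24 for Spata4. Without L.J. replicates 2 and 3, an alternative chosen after seeing the data, it was -0.24 for Spata16, 0.02 for Tex15, -0.12 for Tex9, -0.17 for Spata4 and -0.07 for Spata1 in the comparison with L.J. alone. With a single library left out, changes that turned sign in that comparison ranged from -0.22 to 0.29 for Spata16, -0.19 to 0.09 for Tex30, -0.12 to 0.18 for Tex9, -0.10 to 0.46 for Spata4 and -0.09 to 0.43 for Spata1. The depth is unknown, so how far it limits the low genes was not tested.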
